A study of Schizosaccharomyces pombe with 6 samples.

Results

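The genes described here encode translocases that bring proteins into mitochondria, 4 tom genes of the outer membrane (tom20, tom22, tom40 and tom70) and 6 tim genes of the inner membrane and the space before it (tim9, tim10, tim17, tim22, tim23 and tim44). They were chosen by name as mitochondrial genes outside the respiratory chain. The rule uses no measured value, but it was written with earlier results of these arrays known. All 10 have a probe set that the array annotation pairs with a single S. pombe gene, out of 2917 such probe sets and 4965 tested in all. Gene expression was measured in wild-type fission yeast of strain 972 h-, grown in liquid medium to an OD600 of 0.5. The NaHS group held 3 cultures given 50 µM NaHS, the donor salt of hydrogen sulfide used in this study, and kept at 30°C for 30 min, and the untreated group held 3 cultures without NaHS. RNA of each culture was read on an Affymetrix Yeast Genome 2.0 array of its own. The cultures of both groups were of the same wild-type strain, and 1 dose and 1 time were measured. The comparison asks whether nuclear genes for mitochondrial protein import change at the level of RNA when hydrogen sulfide is given.

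Nearly all mitochondrial proteins are made in the cytosol and have to cross 1 or both mitochondrial membranes. Receptors of the TOM complex on the outer membrane bind them and pass them to a channel formed by Tom40. Proteins with a cleavable presequence then go through the TIM23 complex of the inner membrane, drawn in by an Hsp70 motor, whereas carrier proteins are led by small Tim chaperones to the TIM22 complex, which inserts them into the inner membrane. Much of this is known best from S. cerevisiae, and the roles given below are those of that pathway.

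The array also carries probe sets for S. cerevisiae, whose RNA was not hybridised, so these show the background. Across the 60 values of the 10 S. cerevisiae probe sets of the same gene names, TOM20 to TIM44, 23 were blank and the highest was 3.36 on the log2 scale. The 10 fission yeast genes lay between 9.63 and 12.28 on all 6 arrays. Every one of their values was therefore far above the background of the counterpart in the other yeast. The medians of the tested probe sets were between 9.49 and 9.58 per array, and correlations between arrays of 1 group were between 0.969 and 0.996. The values are log2 MAS5 signals, so a difference of 1 is a 2-fold change. Because probe sets differ in how strongly they bind, a gene was compared only with itself. Errors given with ± are SDs over 3 arrays. Standard errors, 95% intervals and adjusted p-values are those of limma.

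Without a replicate block none of the 10 genes passed the test after NaHS treatment, and with the replicate number as a block tim22 alone passed (adjusted p = 0.0265, limma). The log2 fold changes ran from -0.21 for tim22 to 0.087 for tom40, with a median of -0.052, and without the block the lowest adjusted p was 0.464 (limma, Benjamini-Hochberg over 4965 probe sets). Of all tested probe sets, 7.63% passed at the same threshold of 0.05, 3.97% higher and 3.67% lower, so that a count of 0 among 10 genes is near the background. At an unadjusted p below 0.05, none of the 10 genes passed, beside 22.5% of all tested probe sets. A version of SAM written from its description, which is not the study's own run, called none of the 10 and 3.0% of all tested probe sets. It adds a constant of 0.426 to each standard error, beside limma standard errors of at most 0.14 for the 10. Its count of 0 therefore says little about differences this small. In none of the 10 genes were the 3 NaHS arrays all above or all below the 3 untreated arrays, whereas this was so for 28.4% of the tested probe sets. Since RNA of whole cultures was measured, fewer cells expressing a gene and less RNA per cell cannot be told apart.

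The intervals say how large a change these arrays leave possible. For all 10 genes the 95% interval of the fold change lay inside 1.5-fold in both directions, as it did for 65.4% of the tested probe sets. The widest bound downward was that of tim22, at 1.46-fold lower, and the widest upward that of tom40, at 1.24-fold higher. With the replicate block the intervals were narrower for all of the 10 genes but tim9, the lowest bounds being -0.33 for tim9 and -0.32 for tim22 and the highest bound 0.20 for tom40 on the log2 scale. Standard errors of the 10 genes were between 0.065 and 0.14, with a median of 0.090, beside a median of 0.114 over all tested probe sets.

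**Figure D1:**
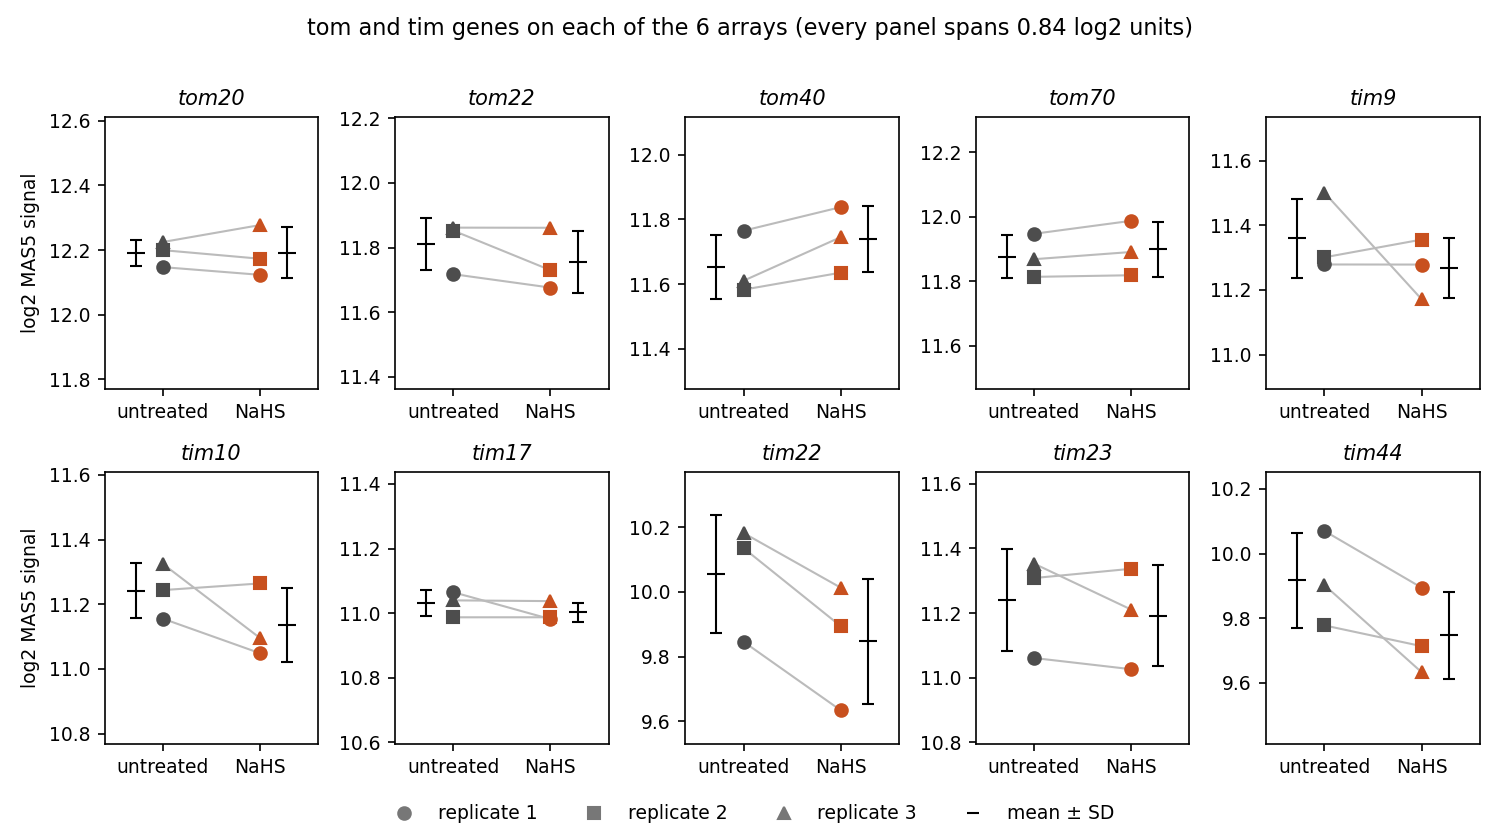
Log2 MAS5 signal of the 10 genes on each array, with untreated arrays in grey, NaHS arrays in orange, grey lines joining the same replicate number, and black bars for the mean ± SD of 3 arrays. The groups overlap in every panel, and the 3 lines of tim22 all run down, with differences from -0.24 to -0.17.

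The receptors come first in the pathway. Tom20 (SPAC6F12.07) and Tom70 (SPAC6B12.12) bind incoming proteins, Tom20 mainly those with presequences and Tom70 mainly carriers, and Tom22 (SPAC17H9.16) is the central receptor that holds the complex together. For tom20 the log2 signal was 12.15, 12.20 and 12.23 in untreated replicates 1, 2 and 3 and 12.12, 12.17 and 12.28 in the NaHS replicates. The untreated values lay inside the range of the treated ones, and the log2 fold change was 0.00074 (95% interval -0.18 to 0.18, adjusted p = 0.998, limma). For tom70 the untreated arrays gave 11.95, 11.81 and 11.87 and the NaHS arrays 11.99, 11.82 and 11.89. Each treated array was above its untreated partner, but by at most 0.040, and the log2 fold change of 0.022 (95% interval -0.17 to 0.21, adjusted p = 0.946, limma) was smaller than the SD in either group. The gene tom22 had log2 signals of 11.72, 11.85 and 11.86 without NaHS and of 11.68, 11.73 and 11.86 with it. Both groups reached the same highest value, and the log2 fold change was -0.055 (95% interval -0.26 to 0.15, adjusted p = 0.822, limma).

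The channel gene tom40 (SPBC27B12.13) had the highest log2 fold change of the 10. Its log2 signal was 11.76, 11.58 and 11.61 in untreated replicates and 11.84, 11.64 and 11.75 in NaHS replicates. The treated arrays were above their untreated partners by 0.073, 0.053 and 0.13 in replicates 1, 2 and 3, yet untreated replicate 1 was above NaHS replicates 2 and 3. The log2 fold change was 0.087 (95% interval -0.13 to 0.31, adjusted p = 0.694, limma) and the adjusted p was 0.197 when the replicate number was fitted as a block.

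Tim9 (SPCC24B10.05) and Tim10 (SPAC222.03C) form the chaperone complex that carries hydrophobic proteins across the space between the membranes. The log2 signal of tim9 was 11.28, 11.30 and 11.50 without NaHS and 11.28, 11.36 and 11.17 with NaHS, so that the groups differed mainly in replicate 3, where NaHS minus untreated was -0.33. For tim10 the values were 11.16, 11.24 and 11.32 without and 11.05, 11.26 and 11.10 with NaHS. Its differences were -0.11, 0.021 and -0.23 in replicates 1, 2 and 3. The log2 fold changes were -0.092 for tim9 (95% interval -0.32 to 0.14, adjusted p = 0.692, limma) and -0.11 for tim10 (95% interval -0.32 to 0.11, adjusted p = 0.614, limma). Both genes thus had lower means after NaHS, by less than or about the SD within the groups, which was 0.085 to 0.12.

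Of the TIM23 complex, Tim23 (SPCC16A11.09C) and Tim17 (SPAC3A12.16C) form its core in the inner membrane, and Tim44 (SPBC14C8.02) ties the Hsp70 motor to it on the matrix side. Of the 10 genes tim17 had the smallest range. Its 6 values lay between 10.98 and 11.06, a range of 0.083, and the log2 fold change was -0.029 (95% interval -0.19 to 0.13, adjusted p = 0.896, limma). For tim23 the log2 signal was 11.06, 11.31 and 11.35 in untreated cells and 11.03, 11.34 and 11.21 after NaHS. The lowest array of each group was replicate 1, and the log2 fold change of -0.049 (95% interval -0.34 to 0.25, adjusted p = 0.907, limma) was smaller than the SDs of 0.16 in both groups. The gene tim44 had values of 10.07, 9.78 and 9.90 without NaHS and 9.89, 9.71 and 9.63 with it. Each treated array was below its untreated partner, with differences of -0.18, -0.064 and -0.27 in replicates 1, 2 and 3, and the groups overlapped because NaHS replicate 1 was above untreated replicate 2. Its log2 fold change was -0.17 (95% interval -0.44 to 0.10, adjusted p = 0.464, limma), and with the replicate block the adjusted p was 0.0844.

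The gene tim22 (SPBC25H2.04C), for the channel subunit of the complex that inserts carriers, had the lowest log2 fold change of the 10. The log2 signal was 9.85, 10.14 and 10.18 in untreated replicates 1, 2 and 3, a mean of 10.05 ± 0.18, and 9.63, 9.89 and 10.01 in NaHS replicates, a mean of 9.85 ± 0.19 (SD, n = 3). NaHS minus untreated was -0.21, -0.24 and -0.17 in replicates 1, 2 and 3, but the NaHS arrays of replicates 2 and 3 lay above untreated replicate 1. Without a block the log2 fold change was -0.21 (standard error 0.14, 95% interval -0.55 to 0.13, adjusted p = 0.477, limma). With the replicate number as a block the difference was the same and its standard error 0.042, and tim22 passed the test (95% interval -0.32 to -0.094, adjusted p = 0.0265, limma), a change of 1.15-fold. It was the 1 gene of the 10 to pass with the block, in a fit that called 32.7% of all tested probe sets, 16.3% higher and 16.4% lower. The share of 1 in 10 is not above these, so the call does not set the import genes apart from other genes.

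**Figure D2:**
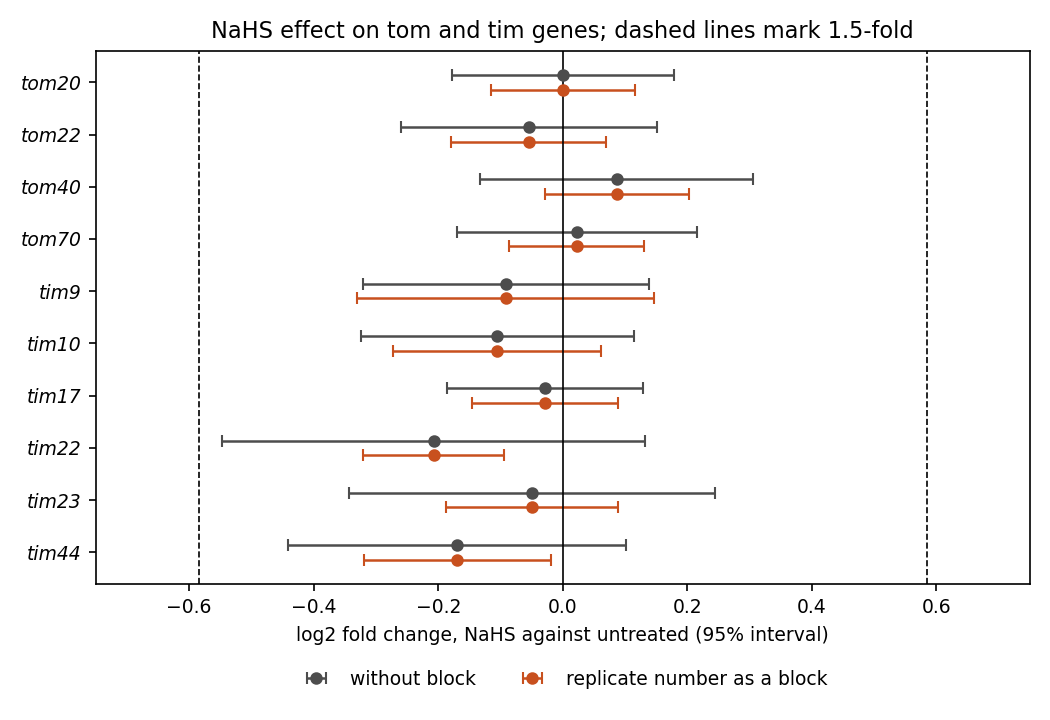
Log2 fold change of each gene, NaHS against untreated, with its 95% interval from limma without a block (grey) and with the replicate number as a block (orange). All intervals lie inside the dashed lines at 1.5-fold. With the block the intervals of tim22 and tim44, which are not adjusted for the number of tests, lie below 0. Of these only tim22 passed the test (adjusted p = 0.0265, against 0.0844 for tim44, limma).

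Differences between replicate numbers were larger than those between treatments for most of these genes. In 8 of the 10, replicate 1 differed from the mean of replicates 2 and 3, averaged over both groups, by more than NaHS differed from untreated, beside 59.3% of all tested probe sets. The largest of these offsets were -0.32 for tim22, -0.26 for tim23 and 0.23 for tim44, and tim9 and tim17 were the 2 exceptions. The replicate number took a median of 71.2% of the sum of squares of the 10 genes and treatment a median of 20.3%, against 54.8% and 22.6% over all tested probe sets. For tim9, unlike the others, most of the sum of squares, 72.4%, went with neither.

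The sign of the difference was the same in all 3 replicate numbers for 5 genes. It was negative for tom22, tim22 and tim44 and positive for tom40 and tom70. Among all tested probe sets 63.5% had such a common sign, so that the share of 5 in 10 is not higher than elsewhere. In tom22 the difference in replicate 3, and in tom70 that in replicate 2, was below 0.01 in size. All 6 tim genes had a mean below that of untreated cells, with a median log2 fold change of -0.098. This was so for 1 of the 4 tom genes, whose median was 0.012, and for 47.4% of all tested probe sets. The split did not extend to the tim and tom genes beyond the 10. Of these, tim13, tim14, tim54 and tom7 were above 0, and tim8, tim16, tim18, tim21, tim50 and tom6 were below it. The sign of tim23 turned when untreated replicate 3 or NaHS replicate 1 was left out, that of tom70 when untreated replicate 2 or NaHS replicate 1 was left out, and that of tom20 with median centring and when untreated replicate 1 or NaHS replicate 3 was left out.

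**Figure D3:**
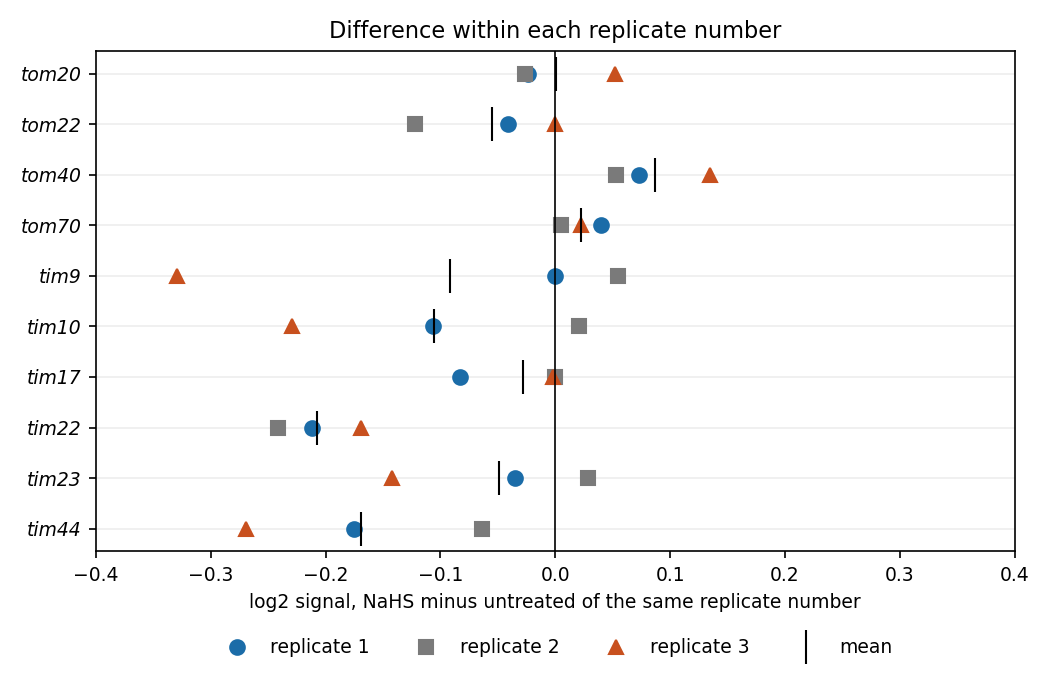
Log2 signal of the NaHS array minus that of the untreated array of the same replicate number, for replicates 1 (blue circles), 2 (grey squares) and 3 (orange triangles), with the mean as a black bar. The points of tim22 and tim44 all lie below 0 and those of tom40 and tom70 above it. The replicate 3 point of tim9 lies far to the left of its other points, while the points of tim10 are spread from -0.23 to 0.021.

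The remaining genes of mitochondrial import were taken from a list by function, and 25 of them have a probe set paired with a single gene, while 5 others (tom5, mtx1, mtx2, hot13 and tim15) were not analysed here. None of the 25 passed the test (limma), 1 had an unadjusted p below 0.05, and SAM called none, beside 7.63%, 22.5% and 3.0% of all tested probe sets. Their median log2 fold change was -0.011, and 21 of the 25 had a 95% interval inside 1.5-fold. In the fit with the replicate block 5 of the 25 passed, 4 lower and 1 higher, a share not above the 32.7% of all tested probe sets, so these calls do not set the genes apart. The intermembrane space genes tim8, tim13, mia40 and erv1, for the second small Tim chaperone complex and the oxidation relay that folds such proteins, ran from -0.082 to 0.098, and the 7 other inner membrane genes from -0.17 to 0.099.

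Of the other outer membrane genes, tom6, for a small subunit that stabilises the TOM complex, came nearest to the threshold. Its log2 signal was 7.94, 8.01 and 7.85 without NaHS and 7.70, 7.57 and 7.45 with it. All NaHS arrays were below all untreated arrays, and the log2 fold change was -0.36 (95% interval -0.59 to -0.14, adjusted p = 0.0764, limma), while with the replicate block tom6 fell (adjusted p = 0.0147, limma). The gene sam50, for the core subunit of the complex that inserts barrel proteins into the outer membrane, had a log2 fold change of 0.22 and rose with the block (adjusted p = 0.0305, limma). For mdm10, which lies next to tom22 in the genome and whose product works with Sam50 and in contacts with the endoplasmic reticulum, the log2 fold change was -0.17, and it fell with the block (adjusted p = 0.0387, limma). In the motor, tim16, for a J-like protein that regulates the Hsp70 cycle, had a log2 fold change of -0.22 and fell with the block (adjusted p = 0.0383, limma), whereas for ssc1, the gene of the Hsp70 itself, the value was 0.090 (adjusted p = 0.619 without and 0.308 with the block, limma).

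The largest difference among the import genes was that of qcr1, also named mas1, whose product is the beta subunit of the protease that removes presequences and is at the same time a core protein of respiratory complex III. Its log2 signal was 11.66, 10.83 and 10.77 without NaHS and 10.97, 10.08 and 10.04 with it. NaHS minus untreated was -0.68, -0.75 and -0.72 in replicates 1, 2 and 3, while replicate 1 was higher than replicates 2 and 3 by 0.88. The log2 fold change of -0.72 did not pass without the block (standard error 0.35, adjusted p = 0.303, limma) and passed with it (standard error 0.042, adjusted p = 0.00201, limma). The gene of the partner subunit, mas2, had values between 10.20 and 10.37 on the 6 arrays and an adjusted p of 0.998 without and 0.985 with the block (limma).

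The listed respiratory chain and ATP synthase genes had lower values after NaHS on the same arrays. Of 30 such genes measured, qcr1 among them, 11 fell and none rose, and the median log2 fold change was -0.29, beside 3.67% of all tested probe sets called lower and a median over all of 0.0095. All 30 had a negative log2 fold change, ranging from -0.91 to -0.11, beside 47.4% of all tested probe sets below 0. In 21 of the 30 all NaHS arrays were below all untreated arrays, beside 681 of the 4965 tested probe sets. With the replicate block 24 of the 30 fell, beside 16.4% of all tested probe sets called lower. Of 29 genes for proteins of the mitochondrial ribosome 1 fell, beside 3.67% of all tested probe sets, and their median log2 fold change was -0.13. With the block 9 of the 29 fell and 1 rose, beside 16.4% of all tested probe sets called lower and 16.3% called higher in that fit. The lowest value of the 10 tom and tim genes, -0.21, was exceeded in size by 23 of the 30 respiratory chain genes. It was also exceeded by 10 of the 29 mitochondrial ribosome genes and by 1719 of the 4965 tested probe sets. The share of the mitochondrial ribosome genes was thus near that of all tested probe sets. Whether the tom and tim genes differ from these sets was not tested, since the sets were chosen with earlier results of these arrays known. Leaving out an untreated array changed the count of 11 to 7 (replicate 1), 2 (replicate 2) and 2 (replicate 3), leaving out a NaHS array changed it to 6, 3 and 5 in the same order, and SAM called 3. The 1 mitochondrial ribosome gene was lost without untreated replicate 2 or 3 or any of the NaHS replicates.

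**Figure D4:**
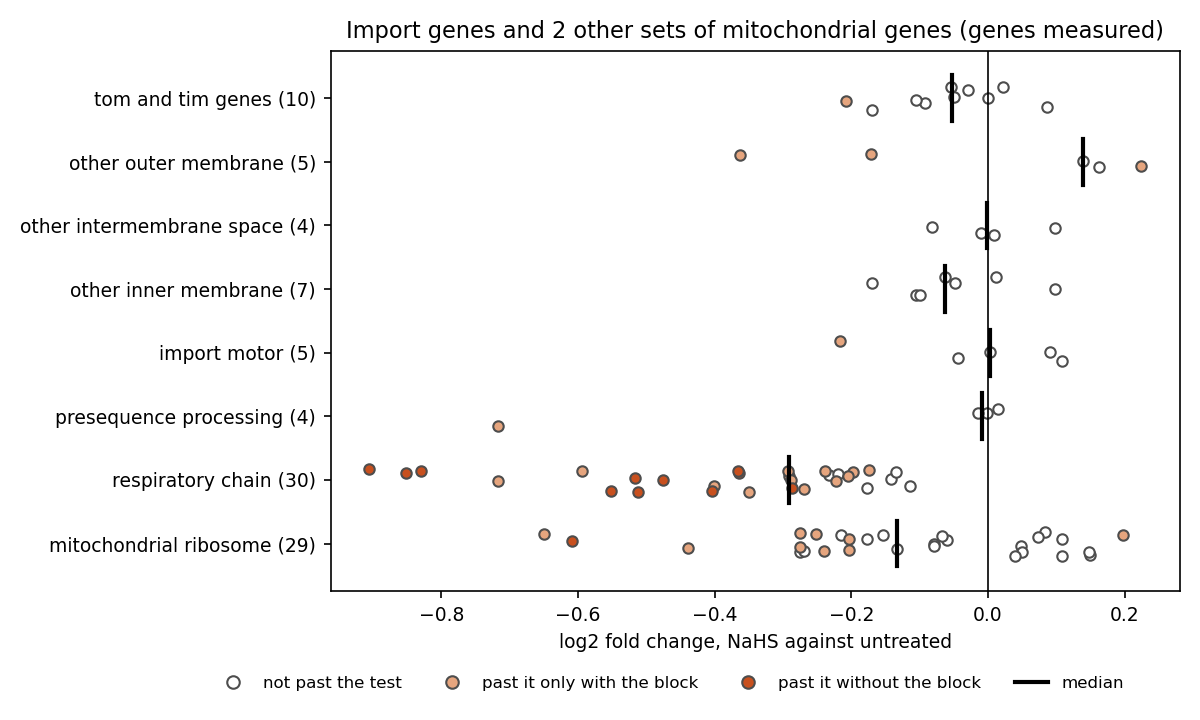
Log2 fold change of single genes, NaHS against untreated, for the tom and tim genes, other import genes by place and 2 other sets of mitochondrial genes, with the number measured in brackets and the median as a black bar; vertical scatter has no meaning. Tom and tim genes lie between -0.21 and 0.087, while all 30 genes of the respiratory chain list, which holds none of complex II, lie below 0.

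The 10 genes have 20 direct protein-coding neighbours in the RefSeq annotation, of which 11 have a probe set paired with a single gene. None of the 11 passed the test (limma), 1 had an unadjusted p below 0.05, SAM called none, and 3 passed with the replicate block, namely mdm10 beside tom22, gsk31 beside tom40 and puf3 beside tim10. Over all tested probe sets these shares were 7.63%, 22.5%, 3.0% and 32.7%, so the counts of the neighbours are not above the background. The log2 fold changes of the neighbours ran from -0.17 to 0.39. The neighbours of tim22 and tim44 that were measured had log2 fold changes of 0.00092 for egd2, 0.20 for cut2 and -0.0065 for fma2.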

How the data were processed

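Total RNA of 6 cultures, 3 untreated and 3 treated with NaHS, was amplified, biotin-labelled and hybridised to 1 Affymetrix Yeast Genome 2.0 array each. Signals were computed with MAS5 per probe set by Shanghai Biochip for the authors and deposited on the log2 scale, per the labels. Neither the version of MAS5 nor its target value is stated. Blank cells, 23.6% of all and 0.050% of those tested, were set to 0.

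Of 10928 probe sets, 2937 are paired with S. pombe genes, 2601 with S. cerevisiae genes, 213 are controls and 5177 are unlisted. Tested were the S. pombe probe sets and 2028 unlisted ones whose mean was above 3.67, the 99th percentile of S. cerevisiae means. Symbols were updated through RefSeq gene identifiers. No source names a genome build for the array, so coordinates are left out.

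The NaHS effect was fitted with limma (version 3.58.1, R 4.3.3) as a two-sided moderated test with Benjamini-Hochberg adjustment over 4965 probe sets, called below 0.05. The residual degrees of freedom were 4 and those of the prior 2.02. An own version of SAM used the 20 arrangements of the labels. The procedures were tested on simulated data. The number of arrays, 3 per group, limits the precision.

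Replicate numbers come from the labels. Deviations from group means correlated at 0.867, 0.578 and 0.598 between arrays numbered 1, 2 and 3. These were above the 0.1 required, so the numbers were taken as pairing the cultures. For replicates 2 and 3 the correlations across numbers, 0.592 and 0.637, were similar to or above those within them. The correlations thus set apart replicate 1 alone, and the pairing of replicates 2 and 3 rests on the labels. The main fit has no block, and values with the replicate block are given where they change a call and for some other genes. The other alternatives, SAM and the fits with 1 array left out among them, had no block either. Their counts thus do not use the pairing.

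All 10 tom and tim genes were to be named, whatever their values, and other import genes where they passed the test without the block, which none did. The members and lists were chosen with earlier results of these data known. Of the other genes named, tom6, sam50, mdm10, tim16, ssc1, qcr1, mas2 and sdh3 were chosen after their values were seen. So were the intermembrane space genes, the tom and tim genes beyond the 10, the neighbours of the 10 genes and the counts of intervals inside 1.5-fold. Alternatives were another normalization (quantile, median centring), a filter on dim probe sets, annotated probe sets alone, blank cells left missing, another variance model, SAM, the block and leaving out each array. Python 3.11.15, with NumPy 2.4.6, pandas 2.3.3 and Matplotlib 3.10.9, made the tables and plots.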

Additional observations from a re-analysis of the deposited data

How the results depend on the processing

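The 10 tom and tim genes gave 140 log2 fold changes under 14 alternatives, of which 132 kept their sign and their side of the threshold. The exceptions were tim22, which passed with the replicate block, and 7 turned signs: tom20 with median centring (-0.0084), and, with 1 array left out, tom20, tom70 and tim23, whose values then ran from -0.042 to 0.035, from -0.022 to 0.062 and from -0.14 to 0.033. The count of the 10 that passed was 1 with the replicate block and 0 under all other alternatives, and without the block the lowest adjusted p under any limma alternative was 0.253. Their median log2 fold change was between -0.097 and -0.020 with 1 array left out, and 9 or 10 intervals then lay inside 1.5-fold. Of the other import genes 5 passed with the replicate block, 1 with quantile normalization and 0 in the 6 fits with 1 array left out. Respiratory chain genes called were 24 with the block, 3 by SAM and 2 to 7 with 1 array left out, instead of 11. Mitochondrial ribosome genes called were 10 with the block, 2 with the filter on dim probe sets (a mean log2 signal of at least 6), 2 with the intensity trend and robust prior, 0 by SAM and 0 to 1 with 1 array left out, instead of 1. The count over all tested probe sets was 1622 with the block, 169 of 2937 with annotated probe sets alone (fewer probe sets tested), 149 by SAM and 95 to 224 with 1 array left out, instead of 379. The cause of the other differences was not tested. Signal was far above background for all 10 genes.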
